A study of Mus musculus with 9 samples.

Results

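The 10 genes *S100a8*, *S100a9*, *Ngp*, *Camp*, *Ltf*, *Mpo*, *Elane*, *Retnlg*, *Pglyrp1* and *Lcn2*, whose proteins make up neutrophil granules or act as neutrophil alarmins, were followed through 9 bulk RNA-Seq libraries of mouse iris. They were chosen by name, and all 10 are among the 18349 genes of the count files. Each library pooled 3 irises, and 3 libraries were made for each of 3 groups. Sham *VEGFR3fl/fl* mice were treated with PBS on the cornea, and injured *VEGFR3fl/fl* mice received corneal alkali injury (CAI) with 1 M sodium hydroxide. The 3 libraries labelled injured *VEGFR3iLECko*, or iLECko, came from *VEGFR3fl/fl;Prox1-CreERT2* mice with the same injury. In this line the Cre recombinase is driven by *Prox1*, a gene of lymphatic endothelial cells, and is turned on by tamoxifen. Mice were treated at 6 weeks of age, tamoxifen was given at 80 mg/kg between days 13 and 17, and irises were taken at week 10. All mice carried the floxed *VEGFR3* allele, and the control groups lacked the Cre.

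Neutrophils build their granules in the bone marrow in successive waves. Primary (azurophil) granule genes such as *Mpo* and *Elane* are transcribed in promyelocytes, and secondary granule genes such as *Ltf*, *Camp* and *Ngp* are transcribed in myelocytes and metamyelocytes. These transcripts are largely lost by the time a neutrophil enters the blood, while the proteins persist. *S100a8* and *S100a9* encode the subunits of calprotectin, an abundant cytosolic protein that sequesters metal ions and acts as an alarmin through TLR4 and RAGE, and their transcripts remain in mature neutrophils. *Lcn2* and *S100a8/S100a9* can also be transcribed by stressed epithelium and other cells, so they are not particular to neutrophils.

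Total estimated counts per library ranged from 16617187 to 18306359, and 3 counts in a library corresponded to between 0.164 and 0.181 CPM, the count per 1e6 normalized counts. *Flt4*, which encodes VEGFR3, was not lower in the libraries labelled *VEGFR3iLECko* than in injured *VEGFR3fl/fl* libraries (log2 fold change 0.34, edgeR adjusted p = 0.200). Counts over the whole gene in whole iris do not resolve a floxed exon in lymphatic endothelium, so the genotype labels were not checked by this value. The summed CPM of 4 Y-linked genes was at most 1.11 in the 3 libraries labelled *VEGFR3iLECko* and 0.804 in injured *VEGFR3fl/fl* replicate 3, and was 51.1 to 167 in the other libraries. The sex make-up of the pools therefore could not be told apart from the label *VEGFR3iLECko* in the comparison with Sham, and only in part in that of the injured groups.

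The alarmin pair was nearly silent in Sham iris and abundant after CAI. *S100a8* had 6, 3 and 4 counts in the Sham libraries, 543, 1073 and 1115 counts in the injured *VEGFR3fl/fl* libraries, and 1027, 1355 and 4596 counts in the libraries labelled *VEGFR3iLECko*. *S100a9* had 3, 8 and 15 counts in Sham libraries, 689, 1566 and 1875 counts in injured *VEGFR3fl/fl* libraries, and 1415, 2503 and 8362 counts in the libraries labelled *VEGFR3iLECko*. Every injured library was above every Sham library for both genes, whereas the injured groups overlapped. The mean of *S100a8* was 0.242 ± 0.083 CPM in Sham (SD, n = 3), 53.3 ± 17.6 CPM in injured *VEGFR3fl/fl* and 134 ± 114 CPM in injured *VEGFR3iLECko*. For *S100a9* the means were 0.488 ± 0.341, 80.4 ± 34.4 and 235 ± 215 CPM in the same order. After CAI in *VEGFR3fl/fl* mice *S100a8* rose by a log2 fold change of 7.74 ± 0.90 (SE, edgeR adjusted p = 7.69e-05) and *S100a9* by 7.35 ± 0.96 (edgeR adjusted p = 0.000155), or by 7.997 without Sham replicate 3. Among 17917 genes ranked by approximate TPM, a level corrected for transcript length, *S100a9* stood between rank 271 and 851 in the injured *VEGFR3fl/fl* libraries and between rank 30 and 349 in the libraries labelled *VEGFR3iLECko*.

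*S100a8* lies on the forward strand at chr3:90669071-90670034 (RefSeq, GRCm38.p6) and *S100a9* on the reverse strand at chr3:90692630-90695721, 22.6 kb apart. *S100a7a*, a neighbouring S100 gene 10.9 kb from *S100a8*, had 14, 8 and 10 counts in Sham and 22, 7 and 4 counts in injured *VEGFR3fl/fl* libraries, a log2 fold change of 0.13 with a wide 95% interval of -1.45 to 1.71 (edgeR adjusted p = 0.884). The 2 promoter stretches are shown because this gene pair had the highest levels and ordered the 6 injured libraries alike. Each runs from 250 bases before to 50 bases after the RefSeq start site, with the letters TTNNGCAA (a C/EBP motif) or GAGGAAG (a PU.1 motif), on either strand, in capitals.
S100a8: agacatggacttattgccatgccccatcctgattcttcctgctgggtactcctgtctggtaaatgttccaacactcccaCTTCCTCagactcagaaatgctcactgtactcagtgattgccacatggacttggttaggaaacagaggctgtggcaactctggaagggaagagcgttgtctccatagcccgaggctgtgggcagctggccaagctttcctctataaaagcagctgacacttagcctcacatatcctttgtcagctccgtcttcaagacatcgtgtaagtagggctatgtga
S100a9: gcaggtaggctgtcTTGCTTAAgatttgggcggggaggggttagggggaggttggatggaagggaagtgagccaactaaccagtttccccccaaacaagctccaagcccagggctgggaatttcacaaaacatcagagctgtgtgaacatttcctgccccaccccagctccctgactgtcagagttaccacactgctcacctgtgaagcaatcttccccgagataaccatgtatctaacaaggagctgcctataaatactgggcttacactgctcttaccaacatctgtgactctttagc
The *S100a8* window (chr3:90668821-90669120) held 1 GAGGAAG match, 171 bases before the start, and the *S100a9* window (chr3:90695672-90695971) held 1 TTNNGCAA match. Of 27025 mouse promoter windows of this length, 10.8% held TTNNGCAA, 13.5% held GAGGAAG and 5.72% held GGGNNTTCC, the NF-kB letters searched. Among the 10 genes, 5 windows held TTNNGCAA, 5 held GAGGAAG and 1 held GGGNNTTCC; a match describes letters only.

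*Retnlg* encodes resistin-like gamma, a secreted protein made by myeloid cells. It had 1, 6 and 2 counts in Sham libraries, 92, 325 and 80 counts in injured *VEGFR3fl/fl* libraries, and 126, 195 and 1420 counts in the libraries labelled *VEGFR3iLECko*. All injured libraries lay above all Sham libraries, and 1 library of the last group lay far above the other injured libraries. *Retnlg* rose after CAI by a log2 fold change of 5.80 ± 1.45 (edgeR adjusted p = 0.00694), from 0.169 ± 0.150 to 9.73 ± 8.06 CPM. The log2 fold change was 4.86 without injured *VEGFR3fl/fl* replicate 2 and 6.74 without Sham replicate 2, both still called, and limma-voom did not call it (adjusted p = 0.177).

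The secondary granule genes were present at low levels, and they were uneven between libraries. *Ltf*, which encodes the iron-binding lactoferrin, had 1, 5 and 3 counts in Sham, 10, 34 and 61 counts in injured *VEGFR3fl/fl* and 21, 109 and 20 counts in injured *VEGFR3iLECko* libraries. The Sham and injured libraries did not overlap, and *Ltf* rose after CAI by a log2 fold change of 3.54 ± 0.99 (edgeR adjusted p = 0.0124). Without injured *VEGFR3fl/fl* replicate 3 it was 2.9 (edgeR adjusted p = 0.0414), and limma-voom did not call it (adjusted p = 0.0513). *Camp*, which encodes the antimicrobial cathelicidin peptide, had 0, 1 and 2 counts in Sham, 15, 2 and 8 counts in injured *VEGFR3fl/fl* and 1, 46 and 21 counts in injured *VEGFR3iLECko* libraries. With 25 counts against 3, its ratio after CAI was 7.76 (exact 95% interval for counting error 2.37 to 40.2), and it did not pass the test over libraries (log2 fold change 2.98 ± 1.44, edgeR adjusted p = 0.102). *Ngp*, which encodes neutrophilic granule protein, had 1, 0 and 4 counts in Sham, 12, 8 and 3 counts in injured *VEGFR3fl/fl* and 6, 217 and 63 counts in injured *VEGFR3iLECko* libraries. Sham and injured *VEGFR3fl/fl* libraries overlapped for *Ngp*, and the test was not passed (log2 fold change 2.195 ± 1.54, edgeR adjusted p = 0.246).

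*Camp*, *Ngp* and *Ltf* lie on chromosome 9 in that order, at chr9:109847377-109849456, chr9:110419808-110423012 and chr9:111019292-111042766, separated by 570 kb and 596 kb. The nearest tested genes on either side of *Camp* and *Ngp* were not called in any of the 3 comparisons. *Ccrl2*, a chemerin-binding receptor gene 12.1 kb from *Ltf*, rose after CAI (log2 fold change 2.63, edgeR adjusted p = 9.31e-07). The *Ngp* promoter window (chr9:110419558-110419857) is shown because its level differed most between the injured libraries; it held 2 TTNNGCAA matches, in capitals.
Ngp: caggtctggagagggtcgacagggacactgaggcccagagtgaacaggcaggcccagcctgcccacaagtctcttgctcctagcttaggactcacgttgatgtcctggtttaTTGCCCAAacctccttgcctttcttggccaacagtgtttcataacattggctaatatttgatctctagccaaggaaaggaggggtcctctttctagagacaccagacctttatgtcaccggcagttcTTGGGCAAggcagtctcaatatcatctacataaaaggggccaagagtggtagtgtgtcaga

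The primary granule genes *Mpo* and *Elane* were at the limit of detection in every library. *Mpo*, which encodes myeloperoxidase, had 0, 0 and 1 counts in Sham, 2, 2 and 1 counts in injured *VEGFR3fl/fl* and 0, 0 and 2 counts in injured *VEGFR3iLECko* libraries. *Elane*, which encodes neutrophil elastase, had 1, 1 and 0 counts, 2, 1 and 1 counts, and 1, 1 and 0 counts in the same order. Both genes fell below the filter on low counts and entered no test; with no filter their edgeR adjusted p-values were 0.234 and 0.477 after CAI. At this depth a change of either gene was not detectable: the counting ratio after CAI was 4.66 (exact 95% interval 0.521 to 220) for *Mpo* and 1.86 (0.267 to 20.6) for *Elane*. Their neighbours gave countable reads. *Prtn3*, which encodes the azurophil protease proteinase 3 and lies 3.14 kb from *Elane* (chr10:79886312-79888216), had 7, 5 and 6 counts in Sham and 32, 14 and 26 counts in injured *VEGFR3fl/fl* libraries and rose (log2 fold change 2.05 ± 0.39, edgeR adjusted p = 0.00163). *Lpo*, the lactoperoxidase gene 2.02 kb from *Mpo* (chr11:87793784-87804412), had 6, 5 and 3 counts in Sham, 12, 13 and 13 counts in injured *VEGFR3fl/fl* and 53, 31 and 45 counts in injured *VEGFR3iLECko* libraries. *Lpo* rose after CAI (log2 fold change 1.49, edgeR adjusted p = 0.00760) and was higher again in the libraries labelled *VEGFR3iLECko* (log2 fold change 1.73 ± 0.32, edgeR adjusted p = 0.0417). The *Lpo* call between the injured groups was kept in 8 of 20 alternative fits (log2 fold change 1.53 to 1.92, adjusted p 0.00447 to 0.382) and was lost when any single library was left out.

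*Lcn2* and *Pglyrp1* were the members with a clear level in Sham iris. *Lcn2*, which encodes the siderophore-binding protein lipocalin 2, had 93, 49 and 118 counts in Sham, 1960, 659 and 283 counts in injured *VEGFR3fl/fl* and 1634, 980 and 2859 counts in injured *VEGFR3iLECko* libraries. It rose after CAI from 4.86 ± 1.96 to 57.9 ± 54.0 CPM (log2 fold change 3.57 ± 0.76, edgeR adjusted p = 0.00294). Without injured *VEGFR3fl/fl* replicate 1, its highest library in that group, the log2 fold change was 2.49 (edgeR adjusted p = 0.00418). *Pglyrp1*, which encodes a peptidoglycan recognition protein of neutrophil granules, had 40, 39 and 22 counts in Sham, 50, 146 and 115 counts in injured *VEGFR3fl/fl* and 105, 86 and 288 counts in injured *VEGFR3iLECko* libraries. It had the smallest change of the 8 tested members after CAI, a log2 fold change of 1.68 ± 0.55 (edgeR adjusted p = 0.0240). This call was lost without Sham replicate 1 (log2 fold change 1.81, edgeR adjusted p = 0.0512), Sham replicate 3 (1.45, 0.0838), injured *VEGFR3fl/fl* replicate 2 (1.36, 0.0772) or injured *VEGFR3fl/fl* replicate 3 (1.62, 0.0538). The *Lcn2* window (chr2:32387690-32387989, reverse strand) is shown because this gene took another order across libraries than the alarmins; it held 1 TTNNGCAA and 1 GAGGAAG match, in capitals.
Lcn2: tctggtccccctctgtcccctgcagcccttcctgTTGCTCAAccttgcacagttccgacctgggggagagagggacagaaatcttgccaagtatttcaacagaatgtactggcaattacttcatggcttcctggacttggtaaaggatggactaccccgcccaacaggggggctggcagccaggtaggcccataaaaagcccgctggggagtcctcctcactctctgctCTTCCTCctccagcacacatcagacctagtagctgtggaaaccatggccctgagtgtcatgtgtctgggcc

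**Figure D1:**
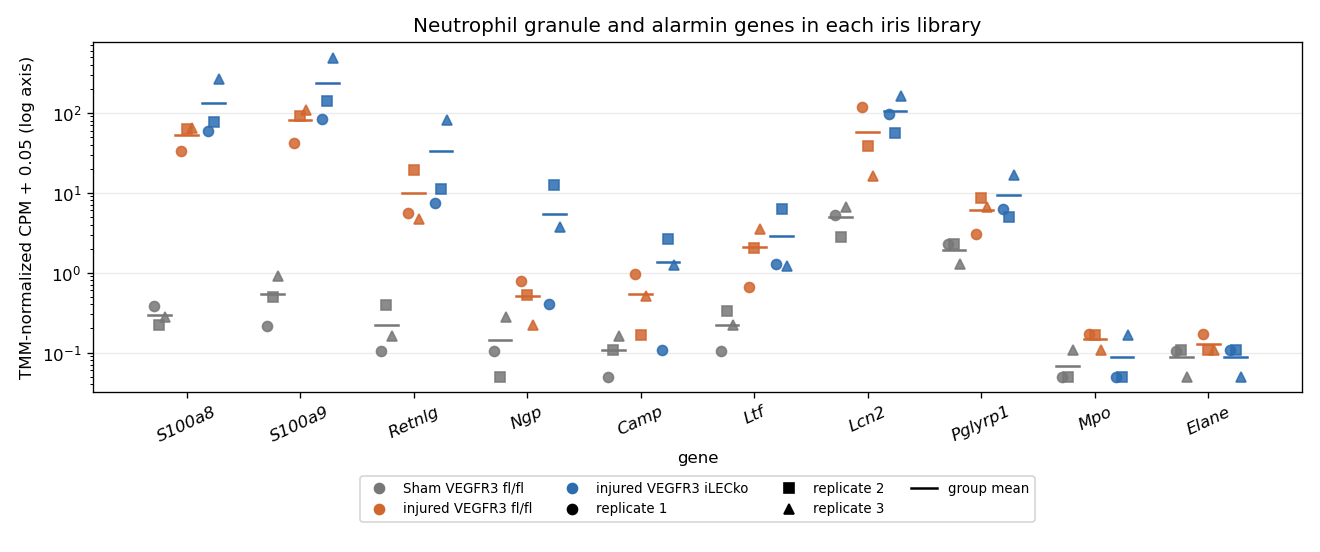
Normalized CPM plus 0.05 (log axis) of the 10 genes in each library, with grey for Sham *VEGFR3fl/fl*, orange for injured *VEGFR3fl/fl* and blue for injured *VEGFR3iLECko*; the marker shape gives the replicate and the bar the group mean of 3 libraries. *S100a8*, *S100a9*, *Retnlg*, *Ltf*, *Lcn2* and *Pglyrp1* had all 6 injured libraries above the 3 Sham libraries, while *Mpo* and *Elane* stayed at 0 to 2 counts.

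Per transcript length, the order of the members changed with injury. In Sham iris *Lcn2* (10.2 ± 4.3 TPM) and *Pglyrp1* (5.35 ± 1.59 TPM) led, followed by *S100a9* (2.67 ± 1.88 TPM) and *S100a8* (1.41 ± 0.53 TPM), with overlapping ranges of the leading pair. In injured *VEGFR3fl/fl* iris *S100a9* led at 369 ± 176 TPM, followed by *S100a8* at 254 ± 98 TPM, *Lcn2* at 93.6 ± 80.5 TPM, *Retnlg* at 38.9 ± 33.7 TPM and *Pglyrp1* at 14.3 ± 7.2 TPM. The ranges of neighbours in this order overlapped between libraries, although *S100a9* exceeded *S100a8* within each of the 6 injured libraries. *Ltf*, *Camp* and *Ngp* followed with overlapping ranges at 1.78 ± 1.33, 1.47 ± 1.09 and 0.846 ± 0.466 TPM, all below the lowest *Pglyrp1* library, and *Elane* (0.183 TPM) and *Mpo* (0.0827 TPM) came last. In injured *VEGFR3iLECko* iris the group means of the leading 5 genes kept this order, from *S100a9* at 1175 ± 1072 TPM to *Pglyrp1* at 23.6 ± 16.5 TPM, and *Ngp* came next at 11.8 ± 13.5 TPM. Single libraries differed: *Retnlg* exceeded *Lcn2* in replicate 3 (357 against 310 TPM), and *Ngp* exceeded *Pglyrp1* in replicate 2 (26.9 against 12.9 TPM). *S100a8* and *S100a9* together made up 6.16% to 11.1% of the summed CPM of the 10 genes in Sham, 36.5% to 84.4% in injured *VEGFR3fl/fl* and 56.3% to 73.5% in injured *VEGFR3iLECko* libraries.

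After CAI in *VEGFR3fl/fl* mice, 6 of the 8 tested members were called higher, that is, with an edgeR adjusted p under 0.05 and a change above 1.5-fold, and none lower. Of all 15010 genes tested, 22.1% were called higher, and 2630 genes were called lower. For 7 of the 8 members every injured *VEGFR3fl/fl* library lay above every Sham library, a pattern found for 33.9% of all genes. For *Camp* this rested on scaling alone, since its highest Sham library and its lowest injured library both had 2 counts (0.113 against 0.117 CPM). The median log2 fold change of the 8 was 3.56 beside 0.01 over all genes; the 8 passed a filter on low counts that a gene silent in Sham passes only through its injured libraries, so these figures describe the list and do not cover *Mpo* and *Elane*. In whole tissue, more cells of a type and more RNA per cell cannot be told apart.

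Between the injured groups, the question was whether the members differed when VEGFR3 was targeted in lymphatic endothelium. All 8 tested members had higher fitted levels in the libraries labelled *VEGFR3iLECko*, as did 48.5% of all genes, and the libraries of the groups overlapped for all 8. The 8 members were measured in the same libraries, so their directions are not separate observations. edgeR called 0 of 8, with 3 (*S100a8*, *S100a9* and *Ngp*) at an unadjusted p under 0.05. DESeq2 called 1 (*Ngp*, log2 fold change 3.57, adjusted p = 0.0153) and limma-voom called 0. Over all genes, 0.573% were called higher, 0.466% were called lower, and 12.4% had every library labelled *VEGFR3iLECko* above every injured *VEGFR3fl/fl* library. The median log2 fold change of the 8 was 1.35, beside -0.0099 over all genes. A gene with few counts in injured *VEGFR3fl/fl* passes the filter on low counts mainly through libraries labelled *VEGFR3iLECko*. These figures therefore describe the list and do not cover *Mpo* and *Elane*. With no filter these 2 genes, at the limit of detection, had log2 fold changes of -1.21 and -0.91 (edgeR adjusted p = 0.580 and 0.639).

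The intervals of these differences were wide. *Ngp* had the largest estimate, a log2 fold change of 3.56 (95% interval 1.07 to 6.04, edgeR adjusted p = 0.107), from 0.456 ± 0.278 to 5.42 ± 6.17 CPM. For *S100a9* the log2 fold change was 1.55 (0.19 to 2.91, edgeR adjusted p = 0.166) and for *S100a8* it was 1.33 (0.18 to 2.48, edgeR adjusted p = 0.163). Intervals for *Retnlg* (1.78, -0.23 to 3.78), *Camp* (1.38, -0.84 to 3.60), *Lcn2* (0.86, -0.59 to 2.31), *Pglyrp1* (0.60, -0.55 to 1.75) and *Ltf* (0.48, -1.24 to 2.2) spanned 0. No difference passed the adjustment over all genes, and the upper bounds lay above 4-fold for all of these genes but *Pglyrp1*.

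A single library carried much of each estimate. Without replicate 3 labelled *VEGFR3iLECko* the log2 fold change between the injured groups was 0.36 for *S100a8*, 0.48 for *S100a9*, -0.08 for *Retnlg* and -0.14 for *Pglyrp1*. Without replicate 2 of that group it was 2.11 for *Ngp*, 0.36 for *Camp* and -0.77 for *Ltf*. Leaving out injured *VEGFR3fl/fl* replicate 1 moved *Lcn2* to 1.94 and *Camp* to 2.14, without replicate 2 *Retnlg* was at 2.71, and without replicate 3 *Ltf* was at 1.13. None of these fits gave a call for a member between the injured groups.

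Compared with the same Sham libraries, all 8 tested members were called higher in the libraries labelled *VEGFR3iLECko*, where 19.7% of all genes were. A gene silent in Sham passes the filter on low counts only through injured libraries. The count of 8 therefore describes the list and does not cover *Mpo* and *Elane*. Limma-voom called 5, without *Ngp* (adjusted p = 0.0949), *Camp* (0.127) and *Retnlg* (0.107). With Y-linked expression as a covariate edgeR also called 5, without *Camp* (adjusted p = 0.140), *Ltf* (0.172) and *Pglyrp1* (0.137). Of the 8, 7 did not overlap with Sham, a pattern found for 33.3% of all genes; *Camp* overlapped, with 1 count in 1 library. Log2 fold changes were 9.06 ± 0.89 for *S100a8*, 8.90 for *S100a9*, 7.57 for *Retnlg*, 5.76 for *Ngp*, 4.44 for *Lcn2*, 4.36 for *Camp*, 4.03 for *Ltf* and 2.28 for *Pglyrp1*, with edgeR adjusted p-values from 3.65e-05 to 0.0200. Without replicate 3 of this group *S100a8* was at 8.10, *S100a9* at 7.83, *Retnlg* at 5.72 and *Pglyrp1* at 1.54, and without replicate 2 *Ngp* was at 4.31 and *Ltf* at 2.77, all still called. Without Sham replicate 3 *Ngp* was at 7.27, *S100a9* at 9.55 and *Camp* at 5.21, and without Sham replicate 2 *Retnlg* was at 8.52, again all called. *Camp* lost its call without iLECko replicate 2 (3.34, edgeR adjusted p = 0.0781), Sham replicate 1 (3.82, 0.0674) or Sham replicate 2 (4.37, 0.0617). This comparison and that of injured *VEGFR3fl/fl* with Sham share their controls.

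**Figure D2:**
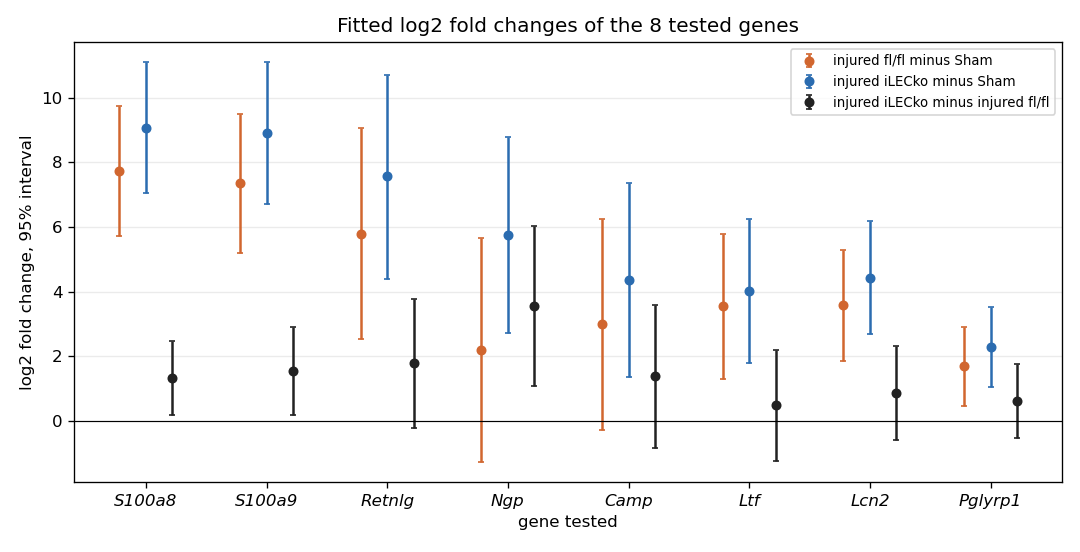
Fitted log2 fold changes (points) with 95% intervals (bars) of the 8 tested genes in 3 comparisons: orange for injured *VEGFR3fl/fl* against Sham, blue for injured *VEGFR3iLECko* against Sham, black for injured *VEGFR3iLECko* against injured *VEGFR3fl/fl*. The black points lie between 0.48 for *Ltf* and 3.56 for *Ngp*, and 5 of the 8 black bars cross 0.

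The members varied between injured libraries more than most genes did. For the 6 members of at least 1 CPM in both injured groups, coefficients of variation were 33.0% (*S100a8*) to 93.2% (*Lcn2*) in injured *VEGFR3fl/fl* and 52.5% (*Lcn2*) to 126% (*Retnlg*) in injured *VEGFR3iLECko* libraries. The median over genes of at least 1 CPM was 11.5% and 9.01%, with 90th percentiles of 39.5% and 27.2%. The libraries did not order all members alike. Replicate 3 labelled *VEGFR3iLECko* was the highest of the 6 injured libraries for *S100a8*, *S100a9*, *Retnlg*, *Pglyrp1* and *Lcn2*, and replicate 2 of the same group was the highest for *Ngp*, *Camp* and *Ltf*. For *Ltf*, replicate 3 was among the lowest, at 20 counts. Between 52.2% (*Lcn2*) and 81.6% (*Retnlg*) of the group's summed CPM of each tested member came from its top library. Injured *VEGFR3fl/fl* replicate 1 was the lowest injured library for *S100a8*, *S100a9*, *Ltf* and *Pglyrp1* and the second highest for *Lcn2*.

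**Figure D3:**
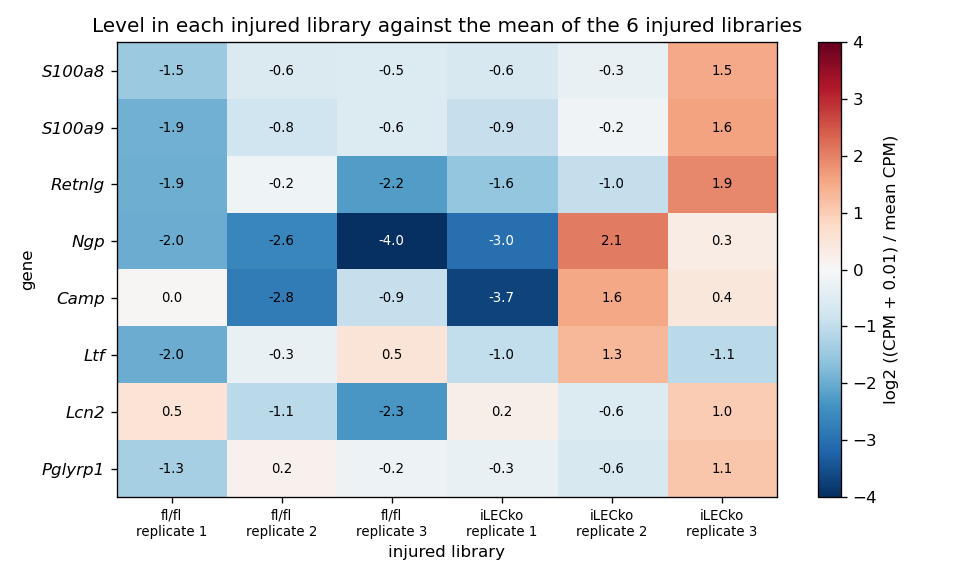
Log2 ratio of each member's CPM (plus 0.01) in an injured library (columns) to its mean over the 6 injured libraries (rows are the 8 tested genes; red is above and blue below the mean). The alarmins and *Retnlg* are highest in iLECko replicate 3, at 1.5 to 1.92, and *Ngp*, *Camp* and *Ltf* in iLECko replicate 2, at 1.34 to 2.07.

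Ratios within a library do not depend on its depth. *S100a9* stayed close to *S100a8*, at 1.27 to 1.68 counts per *S100a8* count in injured *VEGFR3fl/fl* libraries and 1.38 to 1.85 in injured *VEGFR3iLECko* libraries, while *S100a8* itself spanned 8.03-fold in CPM over the 6 libraries. *Ngp*, *Camp* and *Ltf* together had 0.0167 to 0.0300 counts per count of *S100a8* and *S100a9* in injured *VEGFR3fl/fl* libraries. In the libraries labelled *VEGFR3iLECko* this ratio was 0.0115, 0.0964 and 0.00803, so that replicate 2 was the highest and replicate 3 the lowest of all 6. *Retnlg* had 0.0268 to 0.123 and 0.0505 to 0.110 counts per count of the pair in the 2 groups. The ratio of *Lcn2* to the pair was 1.59, 0.250 and 0.0946 in injured *VEGFR3fl/fl* replicates 1 to 3 and 0.669, 0.254 and 0.221 in injured *VEGFR3iLECko* replicates, the widest of the ratios in the first group.

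**Figure D4:**
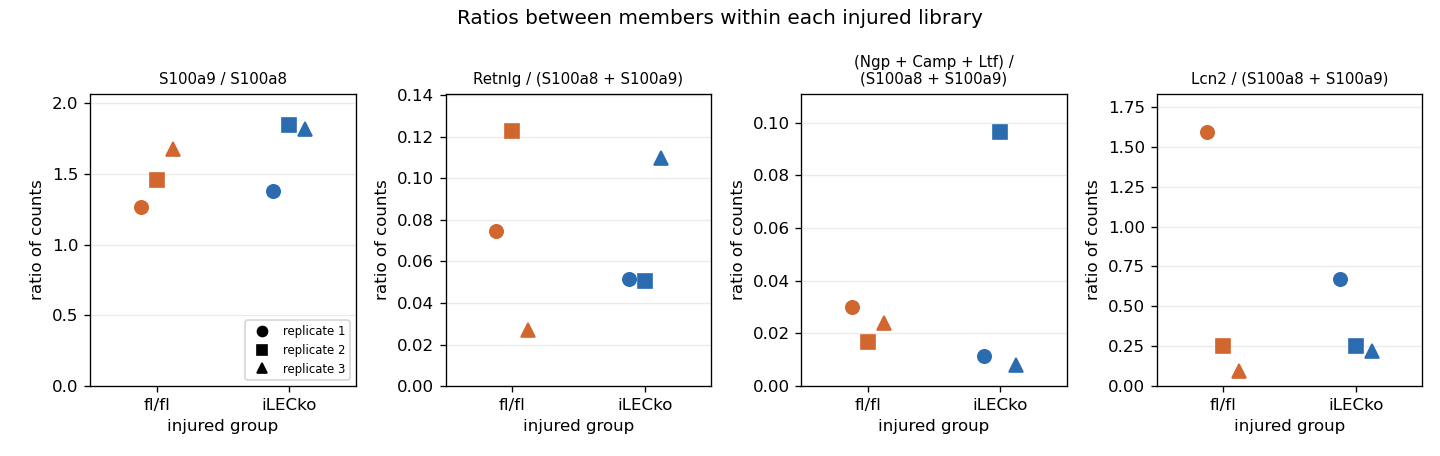
Ratios of counts between members within each of the 6 injured libraries (orange, injured *VEGFR3fl/fl*; blue, injured *VEGFR3iLECko*; the marker shape gives the replicate), each on its own axis from 0. *S100a9* to *S100a8* lies between 1.27 and 1.85, whereas the secondary granule ratio reaches 0.0964 in iLECko replicate 2 and the *Lcn2* ratio 1.59 in *VEGFR3fl/fl* replicate 1.

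Other neutrophil genes gave the setting of these levels. Of 17 tested genes of the mature neutrophil surface and cytosol other than the members, 15 were called higher after CAI and none lower, with a median log2 fold change of 5.81. Over all genes tested, 22.1% were called higher after CAI. Genes nearly silent in Sham, such as *Cxcr2* with 1, 4 and 2 counts, passed the filter on low counts only through injured libraries. The counts of calls for this list and those that follow therefore describe the lists. *Cxcr2*, the receptor for neutrophil-attracting CXC chemokines, rose by 8.03 ± 0.97 (edgeR adjusted p = 9.51e-05), *Il1r2*, a decoy receptor for IL-1, by 7.31 and *Mcemp1* by 6.98. *Ly6g*, the surface marker used to sort mouse neutrophils, had 0 counts in Sham, 3, 3 and 4 counts in injured *VEGFR3fl/fl* and 4, 7 and 86 counts in injured *VEGFR3iLECko* libraries. It was thus low in all injured libraries but replicate 3 labelled *VEGFR3iLECko* and did not pass the filter. Of 14 tested granule genes other than the members, 13 were called higher after CAI, with a median of 5.66, among them *Mmp9* (gelatinase B, log2 fold change 8.24), *Chil3* (a chitinase-like protein, 7.67) and *Slpi* (a protease inhibitor, 7.54). Several of these, such as *Lyz2*, *Itgb2* and *Cybb*, are also expressed by macrophages. Neither list had a call between the injured groups, with medians of 0.76 and 0.18. Over all genes, 0.573% were called higher and 0.466% lower in that comparison. Of 7 azurophil and precursor genes only *Prtn3* and *Hmgn2* passed the filter; *Ctsg*, *Ms4a3* and *Fcnb* had at most 4 counts in any library, and *Prtn3* was the single call.

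Signals that draw and sustain neutrophils were higher after CAI as well. Of 13 tested chemoattractant and growth factor genes, 11 were called higher, beside 22.1% of all genes. The median log2 fold change was 4.0, with *Cxcl3* (6.95), *Il6* (6.59) and *Il1b* (6.54) as the largest. *Csf3*, which encodes the granulocyte growth factor G-CSF, had 0, 0 and 1 counts in Sham, 24, 6 and 3 counts in injured *VEGFR3fl/fl* and 127, 102 and 370 counts in injured *VEGFR3iLECko* libraries. Between the injured groups, 0.573% of all genes were called higher in the libraries labelled *VEGFR3iLECko*. *Csf3* was 1 of 2 such genes of this list (log2 fold change 4.12 ± 0.76, edgeR adjusted p = 0.0417). The other was *Il6*, which encodes interleukin-6, with 19, 61 and 47 counts against 282, 256 and 255 counts (2.62 ± 0.37, edgeR adjusted p = 0.0263). *Csf3* was called in 8 of 20 alternative fits (log2 fold change 3.32 to 6.05, adjusted p 1.46e-05 to 0.253) and *Il6* in 12 of 20 (2.28 to 2.97, 4.46e-09 to 0.271). The *Csf3* call was lost without any single library but injured *VEGFR3fl/fl* replicate 1, and that of *Il6* without Sham replicate 1 or 3 or any library labelled *VEGFR3iLECko*, with adjusted p-values up to 0.111. *Cxcl5*, a CXCR2 ligand, had 392, 1082 and 1627 counts against 1976, 2305 and 8396 counts. These libraries did not overlap, and the difference did not pass the test (2.01, edgeR adjusted p = 0.102). *Cxcl1*, *Cxcl2*, *Cxcl3* and *Il1b* also had every library labelled *VEGFR3iLECko* higher, and *Ccl3* had every such library lower, all without a call. Over all genes, 12.4% had every library labelled *VEGFR3iLECko* higher.

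**Figure D5:**
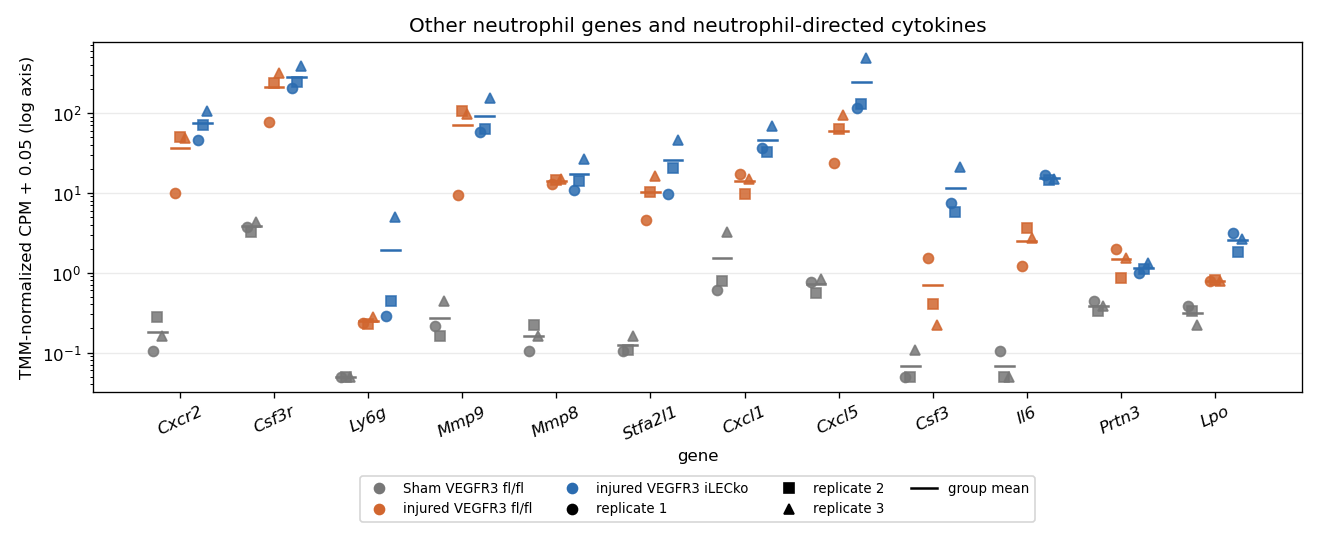
Normalized CPM plus 0.05 (log axis) of 12 other neutrophil, granule and cytokine genes in each library, with the same colours and markers as the plot of the 10 members. *Csf3*, *Il6*, *Cxcl1*, *Cxcl5* and *Lpo* had every iLECko library above every injured *VEGFR3fl/fl* library, a pattern found for 12.4% of all genes tested. *Ly6g* did so by scaling alone, at 4 counts against 4, and reached 86 counts only in iLECko replicate 3.

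Receptors for the member proteins were mixed. Of 11 tested, 7 were called higher and 2 lower after CAI, and 0 were called between the injured groups. Over all 15010 genes tested, 3323 were called higher and 2630 lower after CAI. *Trem1* and *Fpr2* are also counted in the list of mature neutrophil genes above. *Trem1*, a receptor for PGLYRP1, rose by 6.18 ± 0.92, *Fpr2*, a receptor for cathelicidin peptide, by 5.14 and *Cd36*, a scavenger receptor, by 3.32. *Tlr4* rose by 0.79 (edgeR adjusted p = 0.00108), while *Ager*, which encodes RAGE, had a log2 fold change of -0.06 (edgeR adjusted p = 0.786). *Slc22a17*, which encodes a lipocalin 2 receptor, fell by 1.49. Among 10 other S100 genes tested, 6 were called higher and 2 lower, with *S100a4* (2.66) and *S100a6* (2.24) higher and *S100b*, a gene of glia and other neural cells, lower (-1.999). *S100a4* already had 174, 245 and 135 counts in Sham, while *S100a7a* had 14, 8 and 10, about as few as *S100a9*.

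*Lcn2* was also set beside 13 genes of the IL-17 and NF-kB response. All 9 that passed the filter were called higher after CAI, with *Saa3* (8.22), *C3* (5.15) and *Zc3h12a* (2.87) as the largest, and none was called between the injured groups. Of all genes tested, 22.1% were called higher after CAI. The summed CPM of this list was 947, 484 and 574 in injured *VEGFR3fl/fl* replicates 1 to 3 and 639, 632 and 932 in the libraries labelled *VEGFR3iLECko*. *Lcn2* and this sum were both highest in iLECko replicate 3 and *VEGFR3fl/fl* replicate 1. Single genes of the list differed in *VEGFR3fl/fl* replicate 1. *C3* (273 CPM) and *Steap4* (264 CPM) were at their highest of the 6 libraries there, and *Cebpb* (124 CPM) and *Nos2* (5.34 CPM) at their lowest. The summed CPM of 10 neutrophil markers other than the members was 122, 444 and 534 against 352, 442 and 782. This comparison was chosen after the values were seen and covers 6 libraries only. Which cells transcribed *Lcn2* was not tested.

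Markers of other cells moved with the groups and libraries too. The 9 macrophage markers were all called higher after CAI, where 22.1% of all genes were. Between the injured groups, 5 of them were called lower in the libraries labelled *VEGFR3iLECko* (summed CPM 2013 to 2329 against 3283 to 3626). Over all genes, 0.466% were called lower there. The 5 tested T cell markers were all called higher after CAI. Genes of iris smooth muscle and pigment, the tissue's own cells, were at 34450 to 38500 summed CPM in Sham and 4781 to 8420 CPM in injured *VEGFR3fl/fl* libraries, with 9 of 10 called lower, and at 8027 to 9714 CPM in injured *VEGFR3iLECko* libraries. Over all 15010 genes tested, 2630 were called lower after CAI. Summed lens genes were at 2.31 to 3.56 CPM in Sham and 12.6 to 71.6 CPM in injured *VEGFR3fl/fl* libraries, and summed retina genes varied from 15.1 to 856 CPM over the 9 libraries. Of 6 monocyte markers, *Plac8* and *Vcan* were highest in iLECko replicate 3, the library with the most *S100a8*, and *Ly6c2*, *Ccr2*, *Ms4a4c* and *F13a1* were highest in injured *VEGFR3fl/fl* libraries. The part of these cells in the members' levels was not tested. Summed red blood cell genes were 545 to 1201 CPM in Sham and 210 to 503 CPM in injured *VEGFR3fl/fl* libraries. In injured *VEGFR3iLECko* replicates 1 to 3 they were 403, 279 and 1009 CPM. Of the injured libraries, iLECko replicate 3 was again the highest. The part of blood in the values of any library was not tested. Surface epithelium keratins and related genes were at 3.66 to 77.7 CPM in Sham and 1.88 to 7.87 CPM in injured libraries, with *Krt16* and *Sprr2a1* at 0 to 3 counts throughout.

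Over all 9 libraries, the genes whose log level was most like the mean standardized level of the members were *Sulf1* (Pearson r = 0.985), *Pi15* (0.984), *Farp1* (0.984), *Slc43a3* (0.984) and *Ttc39b* (0.984). *Sulf1*, which encodes an extracellular heparan sulfate sulfatase, was at 55.0 to 55.9 CPM in Sham, 182, 237 and 223 CPM in injured *VEGFR3fl/fl* and 196, 292 and 392 CPM in injured *VEGFR3iLECko* libraries. For deviations from the group means, which leave out the injury effect, the leading genes were *Esyt2* (0.988), *Sulf1* (0.980), *Mettl14* (0.976), *Stk38* (0.971) and *Hltf* (0.970). These are the highest of many correlations over 9 libraries that share 3 group means, and are given as a description.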

How the data were processed

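Iris RNA of 9 libraries was sequenced by the authors as single-end reads of 50 bases, which they aligned with HISAT2 2.0.4 and Bowtie2 2.2.5. The submitters' processing notes name the mm10 build; the program that estimated counts is not given in the sources used here. The authors deposited estimated counts per gene, not normalized; between 9.83% and 10.3% of each library's values held decimals and were rounded here. A combined table with the same values, group averages included, was not used. The genotype labels of 2 libraries of the injured *VEGFR3iLECko* group name another VEGFR number; titles set the groups.

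In R 4.3.3, edgeR 4.0.16 kept 15010 of 18349 genes (filterByExpr), normalized by TMM (factors 0.90 to 1.09), and fitted 9 libraries with group as the only term. The quasi-likelihood test was adjusted by Benjamini-Hochberg over all genes; a call needed an adjusted p under 0.05 and over 1.5-fold. CPM are TMM-normalized; TPM are approximate, from the longest GENCODE M21 transcript. Fits were tested on simulated data. DESeq2 1.42.0 and limma 3.58.1 served as alternatives. Exact count ratios, where given, cover counting error only. Replicates of a group differed by more than sampling noise. The 10 members, the lists beside them and the tests were chosen with earlier results of these data known. A rule picked up to 3 genes per list and comparison with the largest called change, or the 2 of highest level where none was called. Not all genes so picked are named here: *Mcpt8* and *Gzmb*, and those of the macrophage, T cell and keratin lists, are among those left out. Genes named beyond this rule were chosen after their values were seen.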

Additional observations from a re-analysis of the deposited data

How the results depend on the processing

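The 8 tested members were refitted with other normalizations, filters, tools, thresholds and left-out libraries, and with Y-linked expression as a covariate, which was added after the data were seen. After CAI, 6 members were called, and 5 to 7 when each library was left out; limma-voom called 3, losing *Retnlg* (adjusted p = 0.177), *Pglyrp1* (0.0791) and *Ltf* (0.0513). DESeq2 called 7, gaining *Camp* (0.0488), which also passed without iLECko replicate 1 (0.0324). Between the injured groups 0 members were called except by DESeq2, with 1. Against Sham, 8 iLECko members were called, 7 to 8 with each library left out, 5 with limma-voom and 5 with the Y-linked covariate. *S100a8*, *S100a9* and *Lcn2* were called in both comparisons with Sham under every alternative run. Between the injured groups, *Ltf* turned to -0.77 without iLECko replicate 2 (range -0.77 to 1.13 over left-out libraries) and to -0.30 with the Y-linked covariate; without iLECko replicate 3, *Retnlg* turned to -0.0789 (range -0.0789 to 2.71) and *Pglyrp1* to -0.14 (range -0.14 to 0.93). The cause was not tested. Over all genes, 9000 instead of 5953 were called after CAI with no fold minimum. Between the injured groups, 156 were called, but 630 by DESeq2, 41 at over 2-fold, 0 in the fit of the 6 libraries alone, 2 with the Y-linked covariate and 0 to 281 with each library left out. Against Sham, 8174 were called with no fold minimum and 3447 at over 2-fold, instead of 5223. Same-numbered libraries did not deviate together (correlations -0.355 to 0.187), so the numbers were not taken to pair them. With the replicate number as a block, 6, 0 and 8 members were called in the 3 comparisons, as without the block, and 24 genes between the injured groups. In the fit of 6 libraries fewer members passed the filter, with 5 called after CAI and 6 against Sham. At 0 to 2 counts, depth limited *Mpo* and *Elane*.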

Other observations

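*Cebpe*, which encodes the transcription factor of secondary granule formation, had 0, 0 and 1 counts in Sham, 2, 32 and 13 counts in injured *VEGFR3fl/fl* and 8, 4 and 6 counts in injured *VEGFR3iLECko* libraries. It was highest in *VEGFR3fl/fl* replicate 2, where *Ngp* and *Camp* had 8 and 2 counts, and stood at 4 counts in iLECko replicate 2, where they had 217 and 46. *Ltf* had 34 and 109 counts in the same libraries. In injured *VEGFR3fl/fl*, *Ltf* and *Cebpe* were both lowest in replicate 1.

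Of the resistin family, *Retn* had at most 5 counts and *Retnla* at most 10 counts in any library, beside up to 1420 counts of *Retnlg*. *Pglyrp2* and *Pglyrp4* had at most 9 and 12 counts, beside up to 288 counts of *Pglyrp1*. *Ptgds*, a lipocalin gene that makes prostaglandin D2, moved against *Lcn2* after CAI: it fell by 1.99 on the log2 scale (edgeR adjusted p = 1.92e-05), from 236460, 268312 and 243728 counts in Sham to 47751, 57802 and 74994 counts in injured *VEGFR3fl/fl* libraries. *Apod*, the other lipocalin gene of this list that passed the filter, rose as *Lcn2* did (log2 fold change 3.685, edgeR adjusted p = 0.00355). It had 1810, 2144 and 1982 counts in Sham and 56483, 4927 and 9887 counts in injured *VEGFR3fl/fl* libraries.

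The stefin A genes, which encode cysteine protease inhibitors of neutrophils, have near-identical copies, so reads could be split between them. *Stfa2l1* had 1, 1 and 2 counts in Sham, 74, 174 and 281 counts in injured *VEGFR3fl/fl* and 165, 359 and 801 counts in injured *VEGFR3iLECko* libraries, the same order of libraries within each injured group as *S100a8*.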
